A study of Mus musculus with 4 samples.

Results

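Natural killer (NK) cells and cytotoxic T cells kill by releasing granules onto a target cell. Perforin, the product of Prf1, opens the target membrane, and granzymes, a family of serine proteases, enter and cleave proteins inside. Fas ligand and interferon gamma reach the target by a second route, through receptors on its surface. The genes described here are 10 cytotoxic effector genes: the granzymes Gzma, Gzmb, Gzmc, Gzmd, Gzme and Gzmf, the perforin gene Prf1, the granule protein gene Nkg7, the interferon gamma gene Ifng and the Fas ligand gene Fasl. They were chosen by symbol, and all 10 were among the 16349 genes of the table of non-malignant cells.

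The cells came from sarcomas of the hind limb, grown as a mouse allograft and labelled with the background strain 129/SvJae and with conditional Trp53 alleles in every mouse. Hosts received intraperitoneal vehicle (PBS) or digoxin, a cardiac glycoside that inhibits the sodium pump, at 2 mg/kg every 24 h, and tumors were taken after 4 doses. Each group held 2 mice, and each mouse gave 1 droplet library of RNA 3′ ends in which a unique molecular identifier (UMI) counts each captured molecule once. Digoxin was prepared in DMSO before dilution in PBS, and the labels name PBS alone for the vehicle. The labels do not give the sex or age of the mice, how the graft was made or whether the mice were processed on the same day.

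Mice carry several near copies of granzyme genes side by side. In the GENCODE annotation of GRCm38, Gzme, Gzmd, Gzmg, Gzmn, Gzmf, Gzmc and Gzmb lie in that order on the minus strand within 144.635 kb at chr14:56117626-56262260. Gzma lies elsewhere, at chr13:113093825-113100981. Prf1 is at chr10:61297833-61304680, Ifng at chr10:118441046-118445892, Nkg7 at chr7:43437073-43438249 and Fasl at chr1:161780689-161788495. Gzmg is not among the 10 genes but is given where it bears on its neighbors, and Gzmn enters only as sequence, its level not being analysed here.

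The end of each coding sequence shows how close the copies are, and it matters because a 3′ library reads near that end. The last 90 coding bases, stop codon included, are printed below, with capitals where a base differs from Gzme at the same position.
Gzme: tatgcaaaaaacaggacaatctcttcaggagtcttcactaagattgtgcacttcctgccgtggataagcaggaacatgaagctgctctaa
Gzmd: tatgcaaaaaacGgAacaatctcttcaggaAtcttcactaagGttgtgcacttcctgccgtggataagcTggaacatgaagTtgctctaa
Gzmg: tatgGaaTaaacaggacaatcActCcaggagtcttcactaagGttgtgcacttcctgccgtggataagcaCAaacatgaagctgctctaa
Gzmf: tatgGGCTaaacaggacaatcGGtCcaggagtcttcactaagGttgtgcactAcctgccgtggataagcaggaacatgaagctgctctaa
Gzmc: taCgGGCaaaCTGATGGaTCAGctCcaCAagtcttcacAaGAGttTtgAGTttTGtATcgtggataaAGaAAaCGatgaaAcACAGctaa
Gzmb: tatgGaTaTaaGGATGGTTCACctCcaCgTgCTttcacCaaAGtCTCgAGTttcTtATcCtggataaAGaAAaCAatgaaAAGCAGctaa
Gzmd, Gzmg and Gzmf differed from Gzme at 6, 7 and 9 of these bases, against 41 for Gzmc and 44 for Gzmb. Over the whole coding sequence, Gzmd and Gzme were 93.5% identical, Gzmd and Gzmf 83.9%, and Gzmb and Gzmc 76.9%. Of the 50-base windows in the last 400 bases of the transcript, 13.1% of those of Gzmd, 9.97% of those of Gzme and 9.12% of those of Gzmf occurred in another granzyme of the array, Gzmn included. Gzmd shared 21 of 351 windows with Gzme and 22 with Gzmf, and Gzme shared 0 with Gzmf and 13 with Gzmn. For Gzma, Gzmb and Gzmc the share was 0%. How reads that match several genes were counted is not given in the sources used here, so the split of UMIs among Gzmd, Gzme, Gzmf, Gzmg and Gzmn is uncertain, while the windows of Gzmc were its own.

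The deposited cell annotation was used as given. Its Cluster NK held 144 and 69 cells in vehicle mice 1 and 2, and 150 and 141 cells in digoxin mice 1 and 2, or 504 in all. Cluster T cell held 183, 110, 155 and 131 cells, or 579 in all. The median cell depth was 10992 to 12449 UMIs for NK cells and 7244 to 8231.5 UMIs for T cells. All 5 NK marker genes (Ncr1, Klrb1c, Klre1, Klra8, Eomes) were above 0 in Cluster NK of every mouse, with a summed mean CPM (CPM is a gene's UMIs per 1000000 UMIs of the cell, and the mean is over cells) of 1929 to 2353. The same 5 summed to 95.1 to 310.4 in Cluster T cell. The 5 T cell markers (Cd3d, Cd3e, Cd3g, Trac, Trbc2) summed to 3762 to 4517 in Cluster T cell and to 192 to 472 in Cluster NK. Vehicle mouse 2 stood apart. It gave the fewest NK cells, its NK and T cells were at 0 for the X-inactivation transcript Xist against 993 to 1288 mean CPM in the other 3 mice, and 59.1% of its T cells were labelled Treg against 19.1% to 26.7% elsewhere. Libraries shared 14 to 25 cell barcodes pairwise, and 0 barcodes belonged to NK or T cells in more than 1 mouse.

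NK cells carried most of the granzyme message. Of all UMIs in the non-malignant table, Cluster NK held 97.2% for Gzma, 97.4% for Gzmc, 96.4% for Gzmd, 96.1% for Gzme, 95.9% for Gzmf and 95.8% for Prf1. It held 79.8% for Gzmb, 74.0% for Nkg7, 70.2% for Fasl and 45.8% for Ifng, and Cluster T cell held most of the rest of these 4 genes, 16.6%, 22.9%, 26.3% and 41.3%. The 6 granzymes together made up 1.39% to 2.72% of all NK cell UMIs per mouse and 0.0953% to 0.105% of T cell UMIs. Clusters come from the expression of the same cells, so the contrast between NK and T cells describes the clusters and was not tested.

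In NK cells, Gzma, the tryptase of the family, averaged 6882 and 5110 CPM with vehicle and 7085 and 7362 CPM with digoxin. Gzmb, which cleaves after aspartate and activates caspases, had 3659 and 3579 against 3410 and 3916. Both were detected in nearly every NK cell, Gzma in 86.8% to 91.5% and Gzmb in 94.3% to 98.6% of cells per mouse. Nkg7, needed for granule release, had 2217 and 1884 with vehicle and 2147 and 1999 with digoxin. Prf1 had 1229 and 981 with vehicle and 1393 and 1340 with digoxin. Each UMI is a molecule counted at its 3′ end, so these levels are not scaled by transcript length. The order over the means of the 4 mice was Gzma (6610 ± 1019 (SD, n = 4)), Gzmb (3641 ± 211 (SD, n = 4)), Nkg7 (2062 ± 150 (SD, n = 4)), Gzmc (1360 ± 395 (SD, n = 4)) and Prf1 (1236 ± 183 (SD, n = 4)). Gzmc was above Prf1 in both vehicle mice and below it in both digoxin mice. Their values overlapped those of Gzmf (1160 ± 903 (SD, n = 4)) and Gzmd (879 ± 437 (SD, n = 4)). Gzme (342 ± 157 (SD, n = 4)) was below these in each mouse, and Fasl (106 ± 16.8 (SD, n = 4)) and Ifng (49.0 ± 16.5 (SD, n = 4)) were the lowest.

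**Figure D1:**
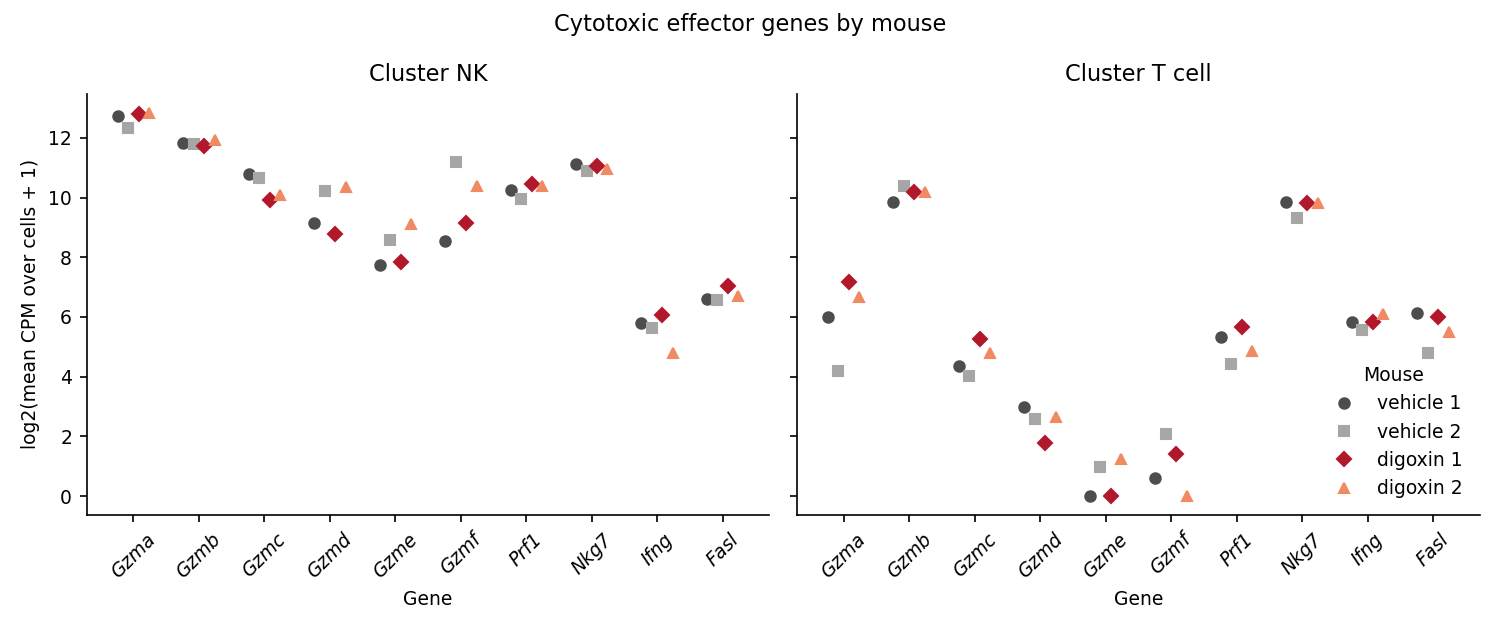
Mean CPM of each cytotoxic effector gene in Cluster NK (left) and Cluster T cell (right), on the log2(mean CPM + 1) scale; each point is 1 mouse. In NK cells, Gzmc is lower with digoxin without overlap, and Gzmd, Gzme and Gzmf spread widely within each group; in T cells, Gzmb and Nkg7 are high in every mouse and Gzmd, Gzme and Gzmf are near 0.

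The tandem copies were not spread evenly over NK cells. Gzmc had at least 1 UMI in 256 of 504 NK cells (50.8%, 95% Clopper-Pearson interval 46.3% to 55.2%, which covers counting error only), Gzme in 71, Gzmd in 67 and Gzmf in 44. The 5 highest cells of a mouse held 49.97% to 69.8% of its Gzmc UMIs, 72.6% to 98.5% of Gzmd, 75.4% to 98.4% of Gzme and 97.5% to 100% of Gzmf. For Gzma and Gzmb the range was 17.5% to 26.8% and 15.2% to 28.2%, and for Nkg7 7.72% to 14.9%. A mean over cells of Gzmd, Gzme or Gzmf is therefore set by a handful of cells in each mouse, and that of Gzmc in part. By CPM, the 5 highest cells gave 49.3% and 59.6% of summed Gzmc CPM with vehicle and 40.3% and 43.7% with digoxin. With 69 to 150 NK cells per mouse, fewer cells of this kind and less RNA in each cannot be told apart in the mean.

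**Figure D2:**
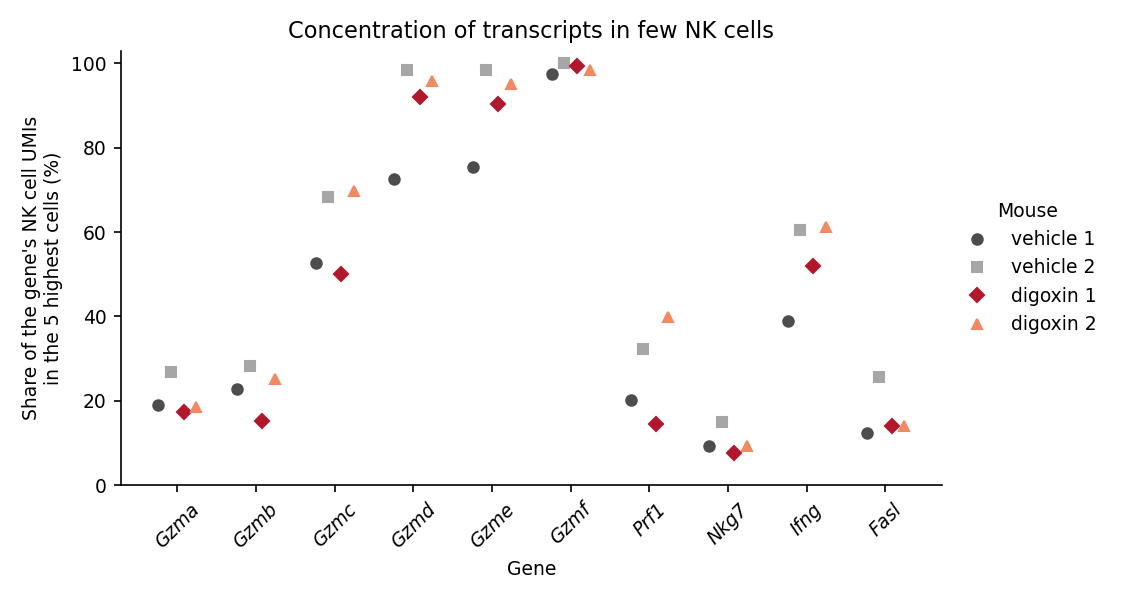
Share of each gene's NK cell UMIs that lies in the 5 cells with the most UMIs of that gene, in percent; each point is 1 mouse. Nkg7, Gzma and Gzmb are spread over many cells, while the 5 highest cells hold over 70% of Gzmd, Gzme and Gzmf in every mouse.

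The cell with the most UMIs of Gzmc to Gzmg was looked at in each mouse. One NK cell of digoxin mouse 2 with 71945 UMIs held 1154 UMIs of Gzmc, 4283 of Gzmd, 2074 of Gzme, 5212 of Gzmf and 5020 of Gzmg, which together were 24.7% of its UMIs (95% Clopper-Pearson interval 24.3% to 25.0%). In 1 cell of vehicle mouse 2 with 23186 UMIs, these 5 genes made up 32.7% (32.1% to 33.4%). In 1 cell of digoxin mouse 1 with 53605 UMIs they made up 9.43%, and in 1 cell of vehicle mouse 1 with 14630 UMIs 11.5%. None of these 4 cells carried a UMI of Cd3e and none was marked as a doublet. The cells of digoxin mouse 2 and vehicle mouse 2 carried 0 and 1 UMI of Ncr1, the activating NK receptor gene, and 3 and 1 of the 7 macrophage markers (Csf1r, Adgre1, C1qa, C1qb, C1qc, Cd68, Lyz2). Those of digoxin mouse 1 and vehicle mouse 1 carried 20 and 16 UMIs of Ncr1 and 2 and 0 of the macrophage markers. These cells were picked for their values, and their makeup is a description.

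Calling a cell high for a gene from 10 UMIs on, 49 of 504 NK cells (9.72%, 95% Clopper-Pearson interval 7.28% to 12.6%) were high for Gzmd, Gzme or Gzmf. They were found in every mouse, as 11.1% and 10.1% of NK cells with vehicle and 8% and 9.93% with digoxin. High cells were deeper, with a median of 21975 UMIs against 10874 in the other 455, so the 10 UMI limit is reached more easily in them. Of 40 cells high for Gzmd, 38 were high for Gzmc, against 91 of the other 464 cells, and 32 were high for Gzme, against 2 of the other 464. In the other direction, 38 of 129 cells high for Gzmc were high for Gzmd. Cells high for Gzmc were also mostly high for Gzma (116 of 129) and Gzmb (122 of 129), as were most of the other 375 cells (282 and 265).

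After taking each cell to an equal depth of 3000 UMIs, Gzmc was detected in 95.2% of the 49 cells and 30.6% of the other 455. Prf1 was detected in 93.2% against 82.3%, Gzma in 90.9% against 84.6% and Gzmb in 95.7% against 89.2%. Other genes ran the other way: Ifng was detected in 2.56% of the 49 cells and 10.5% of the others, the proliferation gene Mki67 in 19.3% against 23.9%, and the NK marker Ncr1 in 71.7% against 84.7%. The NK marker Klrb1c was at 45.5% against 61.6%, and Eomes at 35.9% against 30.9%. The macrophage gene Lyz2 was at 24.6% against 27.2%, Csf1r at 4.78% against 4.01%, and the T cell gene Cd3e at 0.775% against 0.237%. Without equal depth, 3 or more of the 7 macrophage markers were seen in 32.7% of the 49 cells and 17.8% of the others, and in 64.3% of the high cells of digoxin mouse 2. The 49 cells were chosen by granzyme counts, so these are descriptions with no test.

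Across NK cells of 1 mouse, the closest gene to each granzyme, among the genes compared, was another of the 10 genes. Likeness was Pearson's r of deposited log values over the NK cells of a mouse, averaged over the 4 mice, among 8391 genes seen in at least 5% of NK cells in every mouse. Gzmg, seen in 3.33% of NK cells of digoxin mouse 1, was not among them and could not be ranked. Cells share a library and differ in depth, so r is given as a description. Gzmd was closest to Gzme (mean r 0.95) and then to Gzmf (0.70) and Gzmc (0.60). Gzmd shares windows of sequence with Gzme and with Gzmf, and the part of this in the values was not tested. Gzma was closest to Prf1 (0.56), Gzmb (0.48) and Klrg1 (0.39), a receptor of mature NK cells. Gzmb was closest to Prf1 (0.54), Gzma (0.48) and Irf8 (0.38). Gzmc was closest to Gzmd (0.60), Gzme (0.59) and Ifitm1 (0.49), an interferon-induced membrane protein gene. Prf1 was closest to Gzma, Gzmb and Klrg1 (0.46), and Gzmf to Gzmd, Gzme and Cd55 (0.48). Ifng stood with the chemokine gene Ccl4 (0.42), the activation gene Cd69 (0.37) and Ifit2 (0.28). Nkg7 stood with Cd52 (0.39), Ccl5 (0.37) and AW112010 (0.35), and Fasl, a gene of few UMIs, had no r above 0.23, with Ccl5, Sept1 (0.22) and Trim44 (0.22) first.

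The first comparison asked whether effector genes in NK cells differed between digoxin and vehicle. Gzmc was the only one of the 10 that passed the test. It averaged 1769 and 1619 CPM with vehicle and 958 and 1093 CPM with digoxin, so the groups did not overlap. On the log2(mean CPM + 1) scale it fell by 0.73 (SE 0.09, limma, adjusted p = 0.0018 over 9147 genes, lower in 2 of 2 digoxin mice). In linear terms the digoxin mean was 0.605 of the vehicle mean, 1025 ± 96.0 (SD, n = 2) against 1694 ± 105 (SD, n = 2). Over all 9147 genes tested, 0.0765% were called, 0.0547% higher and 0.0219% lower, or 5 and 2 genes. The other 6 were Il1b, Cxcl2, Cd14, Thbs1 and Cxcl3, which were higher with digoxin, and Ifitm1, which was lower. The first 5 are best known from myeloid cells.

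The share of NK cells with any Gzmc UMI moved with its level, but the share of NK cells high for Gzmc overlapped between groups. High for Gzmc were 25% and 29.0% of NK cells with vehicle and 27.3% and 22.7% with digoxin. A Gzmc UMI was seen in 54.2% and 65.2% of NK cells with vehicle and in 43.3% and 48.2% with digoxin. At an equal depth of 3000 UMIs per cell the shares were 39.8% and 48.0% against 31.5% and 34.1%, a difference of -11.1 percentage points (two-sided exact permutation test, p = 0.33, the smallest that 2 mice against 2 allow, adjusted p = 0.667 over 20 shares). The median NK cell was at a Gzmc CPM of 81.8 and 159 with vehicle and of 0 and 0 with digoxin. These medians of 0 restate that a Gzmc UMI was seen in 43.3% and 48.2% of cells. In the 455 cells not high for Gzmd, Gzme or Gzmf, mean Gzmc CPM was 714 and 894 with vehicle and 673 and 433 with digoxin. In the cells high for Gzmd, Gzme or Gzmf it was 10208 and 8043 against 4235 and 7086.

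The Gzmc call depended on how cells were weighted. When UMIs were summed over cells, so that deep cells weigh more, the log2 difference was -0.44 with limma (adjusted p = 0.828) and -0.39 with edgeR (adjusted p = 0.83), and edgeR called 0.186% of genes, Gzmc not among them. With the mean of deposited log values, where extreme cells weigh less, it was -0.48 (limma, adjusted p = 0.0888). Macrophage transcripts were also seen in NK cells. The 7 macrophage markers were all above 0 in NK cells of every mouse. They summed to 546 and 579 mean CPM with vehicle and 633 and 999 with digoxin. Both digoxin sums lay above both vehicle sums, as did 19.1% of single genes tested, and this was not tested. Without NK cells carrying 3 or more of these markers, Gzmc differed by -0.91 (limma, adjusted p = 0.0829), and without the 20 NK cells marked as doublets by -0.67 (limma, adjusted p = 0.0574). The difference was negative under each of the 15 alternatives, from -0.91 to -0.39, and passed the threshold in 9 of them, among them each omission of a single mouse.

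**Figure D3:**
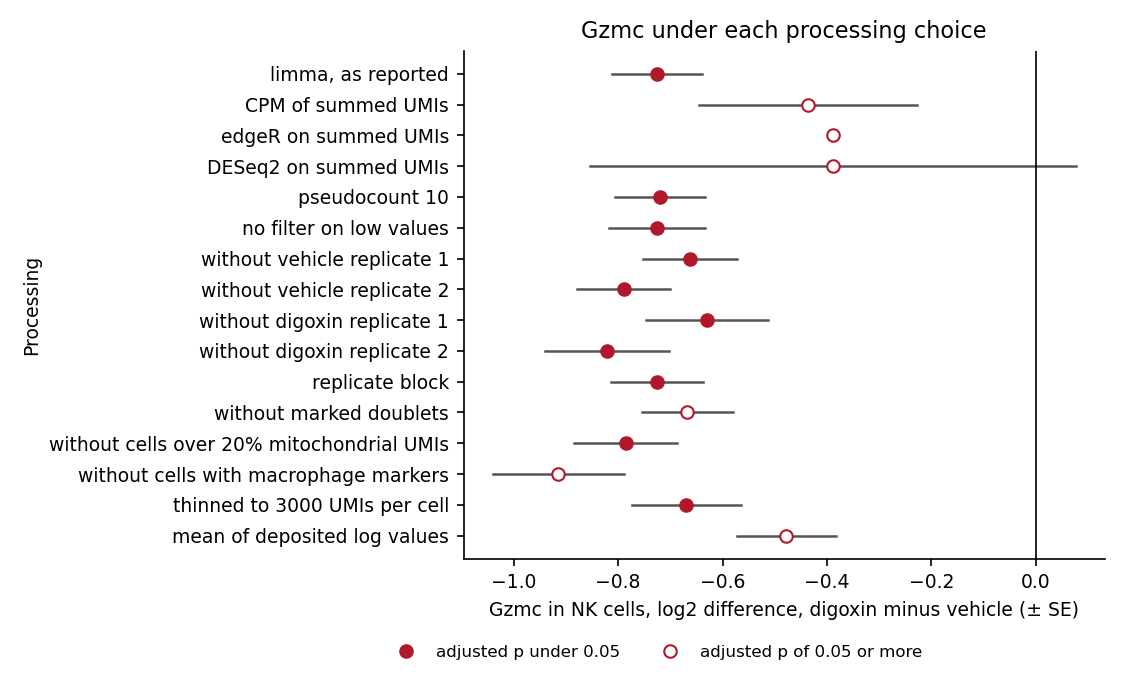
Log2 difference of Gzmc in NK cells, digoxin minus vehicle, as reported and under 15 other ways of processing; bars are ± SE (edgeR gives none), and filled points have an adjusted p under 0.05. All 16 values lie below 0, and the 3 fits on summed UMIs lie nearest to it.

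Among the other granzymes of NK cells no difference passed the test. Gzma had both digoxin values above both vehicle values and differed by 0.28 (SE 0.10, limma, adjusted p = 0.745). It was called in 1 of 15 alternatives, without vehicle mouse 1, where the difference was 0.50 (limma, adjusted p = 5.5e-05). Gzmb differed by 0.01 (SE 0.07, limma, adjusted p = 0.981) with overlapping groups.

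The near copies overlapped between groups. Gzmd averaged 570 and 1206 CPM with vehicle and 440 and 1300 with digoxin, Gzme 213 and 379 against 227 and 548, and Gzmf 374 and 2359 against 563 and 1346. In each gene the highest and the lowest mouse of one group bracketed or overlapped the other group. Their log2 differences were -0.13 (SE 0.37) for Gzmd, 0.31 (SE 0.31) for Gzme and -0.11 (SE 0.57) for Gzmf, with limma adjusted p of 0.968, 0.883 and 0.981. Without NK cells carrying macrophage markers they were -1.74 (SE 0.62), -0.99 (SE 0.50) and -1.63 (SE 0.72), each with a limma adjusted p of 0.852, and on summed UMIs with limma they were 0.58, 0.98 and 0.91. These values turned sign with the mouse left out: without vehicle mouse 2, Gzmf differed by 1.22, and without digoxin mouse 2, by -0.74 (limma, adjusted p = 1.81e-05). Gzmf was also called without vehicle mouse 1, at -1.44 (limma, adjusted p = 0.013), and Gzmd without digoxin mouse 2, at -0.91 (limma, adjusted p = 2.03e-08). With a single mouse left in 1 group, the fit takes that mouse to vary as the others do.

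Perforin and the granule and receptor pathway genes gave no call in NK cells. Prf1 also had both digoxin values above both vehicle values and differed by 0.31 (SE 0.10, limma, adjusted p = 0.656), and was called without vehicle mouse 1, at 0.48 (limma, adjusted p = 0.00419). Fasl had 97.0 and 93.0 mean CPM with vehicle and 130.2 and 102.5 with digoxin, a difference of 0.28 (SE 0.16, limma, adjusted p = 0.799). Nkg7 differed by 0.02 (SE 0.08, limma, adjusted p = 0.974). Ifng had 55.1 and 48.8 with vehicle and 65.7 and 26.6 with digoxin, so the digoxin mice lay on both sides of the vehicle mice (log2 difference -0.30, SE 0.31, limma, adjusted p = 0.895).

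Counted over the 10 genes in NK cells, 3 (Gzma, Prf1, Fasl) had both digoxin values above both vehicle values, 1 (Gzmc) had both below and 6 overlapped. Of all genes tested, 19.1% lay above and 16.9% below in this sense, 36.0% in all. An unadjusted p under 0.05 was reached by 3 of the 10 (Gzmc, Prf1, Gzma) and by 6.28% of all genes. The median log2 difference was 0.02 for the 10 genes and 0.02 for all genes.

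Shares of NK cells with a UMI, at 3000 UMIs per cell, separated more of the 10 genes than mean CPM did. They did not overlap for 7 of the 10, higher with digoxin for Gzma, Prf1 and Fasl and lower for Gzmc, Gzmd, Nkg7 and Ifng. Of all 9147 genes, 36.5% did not overlap on this measure, 19.0% higher and 17.5% lower. Prf1 was detected in 82.3% and 78.3% of cells with vehicle and 86.3% and 83.9% with digoxin, and Ifng in 11.5% and 12.0% against 10.6% and 5.83%. All 504 NK cells and all 579 T cells had the depth for this. Under 4 other settings (5000 UMIs per cell, no thinning, without doublets, without cells with macrophage markers), Gzmc, Gzmd, Prf1 and Ifng overlapped in 0, Fasl in 1, Nkg7 in 2 and Gzma in 3. Nkg7 was near its ceiling at 3000 UMIs, at 98.7% and 98.6% with vehicle and 98.2% and 97.8% with digoxin. Without cells with macrophage markers its difference turned to 0.133 percentage points. In T cells 3 of the 10 shares did not overlap, higher with digoxin for Gzma, Gzmc and Ifng, against 33.5% of 8930 genes, 14.1% higher and 19.4% lower. Under the same 4 settings these overlapped in 0, 1 and 2. None of these can pass an exact permutation test with 2 mice per group.

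T cells held mainly Gzmb and Nkg7 of the 10 genes. Gzmb, with 931 and 1349 mean CPM under vehicle and 1157 and 1161 under digoxin, and Nkg7, with 929 and 636 against 902 and 896, were the leading effectors. A Gzmb UMI was seen in 60.1% of T cells (348 of 579) and a Gzma UMI in 10.2% (59 of 579). Ifng had 56.3 and 46.1 mean CPM with vehicle and 55.8 and 67.4 with digoxin, and Fasl 68.9 and 26.5 against 63.4 and 43.8. The ratio of NK to T cell means over the 4 mice was 80.9 for Gzma, 55.1 for Gzmc, 35.8 for Prf1, 3.17 for Gzmb, 2.45 for Nkg7, 2.09 for Fasl and 0.87 for Ifng. Gzmd, Gzme and Gzmf summed to 20, 2 and 6 UMIs over all 579 T cells.

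No effector gene passed the test between digoxin and vehicle in T cells, where limma called 0% of 8930 genes (382 had an unadjusted p under 0.05, or 4.28%) and edgeR also 0. Of the 10 genes, 7 had enough UMIs to be tested, Gzmd, Gzme and Gzmf not among them. Gzma and Gzmc had both digoxin values above both vehicle values, the only 2 of the 7 with an unadjusted p under 0.05, and the other 5 overlapped. Of all genes tested in T cells, 14.3% lay above in this sense and 19.0% below, 33.3% in all. The median log2 difference was 0.29 for the 7 genes and -0.02 for all genes.

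Gzma in T cells averaged 63.7 and 17.2 CPM with vehicle and 144 and 102 with digoxin, which differed on the log2 scale by 1.83 (SE 0.47, limma, adjusted p = 0.898). It rests on 122, 14, 185 and 102 UMIs, of which single cells held up to 71. Over 15 alternatives it ranged from 0.16 to 2.75 and was called in 3, among them the fit with the replicate number as a block. The value depended on the vehicle mice. Without vehicle mouse 1 it was 2.75 and without vehicle mouse 2 it was 0.92, each against a lone vehicle mouse. Vehicle mouse 2, the lowest, also had the smallest shares of the Sub_Clusters CD8 and NKT, 7.27% and 10.0% of its T cells against 10.3% to 18.3% and 16.8% to 28.4% in the other mice, and the part of this makeup in the difference was not tested. The 7 macrophage markers, all above 0 in T cells of every mouse, summed to 897 and 3077 mean CPM with vehicle and 1655 and 1974 with digoxin. Gzmc in T cells had 19.5 and 15.1 with vehicle and 37.7 and 26.5 with digoxin, a difference of 0.85 (SE 0.30, limma, adjusted p = 0.979). It rests on 27, 25, 41 and 24 UMIs, of which 1 cell per mouse held 7, 19, 23 and 15.

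The digoxin difference of NK cells minus that of T cells was then tested gene by gene, with the mouse as a shared term. It was -1.57 for Gzmc (SE 0.24, limma, adjusted p = 0.217) and -1.55 for Gzma (SE 0.34, limma, adjusted p = 0.788), and 0% of 8478 genes were called (295 had an unadjusted p under 0.05, or 3.48%, and edgeR called 0). The Gzmc difference was called in 3 of 13 alternatives, among them without cells carrying macrophage markers, at -1.90 (limma, adjusted p = 0.00357). The Gzma difference was called with the same sign in 2 of 14 alternatives and changed sign in 1. Without either vehicle mouse it was -1.68 and -1.46. The Gzma difference was -2.25 without vehicle mouse 1 and -0.85 without vehicle mouse 2. Each of these fits without a vehicle mouse was against a lone vehicle mouse.

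Within the T cell Cluster, the effector genes differed in level between the deposited Sub_Clusters. NKT cells (124) had the highest Gzmb, with 1726 and 2851 mean CPM under vehicle and 2106 and 2127 under digoxin. Treg cells (175), regulatory T cells that restrain other T cells, had 1018 and 1584 against 1899.7 and 1812. CD8 cells (78) had 1304 and 551 against 1125 and 1353, the second value from 8 cells, and lay above Treg cells in vehicle mouse 1 only. Th cells (167) had 100.7 and 510 against 63.2 and 241. Pooled over mice, Treg cells held 43.2% of all Gzmb UMIs of T cells, NKT cells 38.5%, CD8 cells 15.1% and Th cells 3.26%. By mouse, Treg cells held 500 and 732 Gzmb UMIs with vehicle and 683 and 511 with digoxin. NKT cells held 845 and 301 against 666 and 350, so they led in vehicle mouse 1 only. In Treg cells Nkg7 ranged from 146 to 279 mean CPM per mouse, against 1558 to 2301 in CD8 and 1636 to 1932 in NKT cells, and Fasl from 0 to 8.84. Treg Prf1 ranged from 16.2 to 44.3, and Treg Gzmc was 62.6 in vehicle mouse 1 (19.5 in its NKT and 4.34 in its CD8 cells) and 1.67 to 5.39 in the other mice.

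Gzma was highest in NKT cells of each mouse. Pooled over mice, NKT cells held 67.1% and CD8 cells 24.6% of its T cell UMIs, the latter as 6 and 1 UMIs with vehicle and 50 and 47 with digoxin. In NKT cells it had 200.2 and 83.8 mean CPM with vehicle and 438 and 294 with digoxin, and in CD8 cells 17.7 and 23.8 against 263 and 217. In Th cells it had 9.16 and 26.5 against 13.3 and 23.1. These values rest on 1 to 124 UMIs per mouse and were not tested. Th cells held 49.0% of Ifng UMIs, NKT cells 23.5% and CD8 cells 14.5%. Th cells had 89.9 and 86.6 mean CPM with vehicle and 109 and 131 with digoxin, and had little Prf1 (2.56 to 14.6 per mouse). Prf1 was highest in NKT (38.9 to 135) and CD8 cells (32.8 to 93.6). Fasl ranged over mice from 76.3 to 125 in CD8, 66.0 to 95.8 in NKT and 62.2 to 76.5 in Th cells, with Th cells the lowest of these in each mouse. The 35 cells labelled Unknown T cell had 1 UMI of Gzmb, 4 of Nkg7 and 0 of the other 8 genes.

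**Figure D4:**
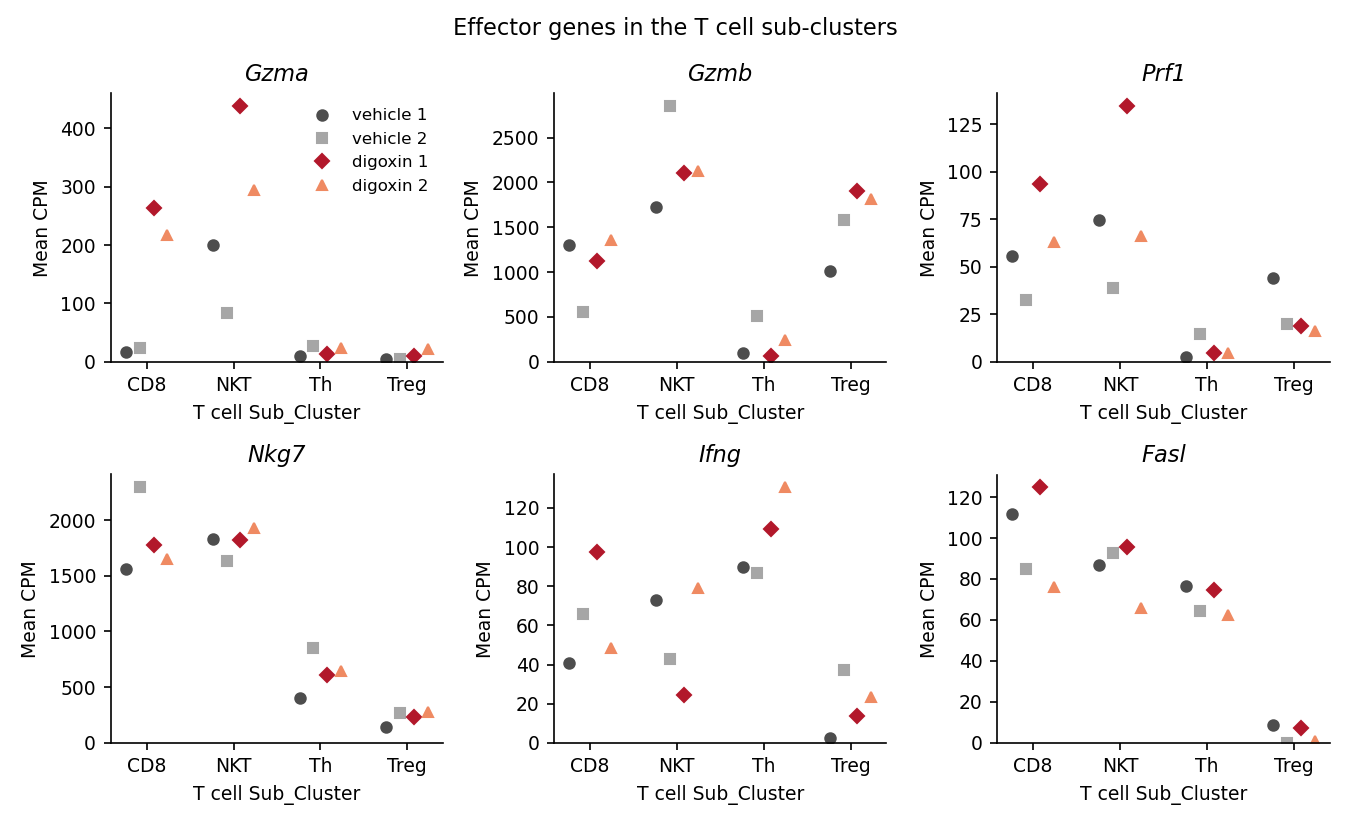
Mean CPM of 6 effector genes in 4 T cell sub-clusters of the deposited annotation; each point is 1 mouse, and each panel has its own axis from 0. Gzmb is high in NKT, Treg and CD8 cells, Prf1 in NKT and CD8 cells, and Gzma in NKT cells and in CD8 cells of the digoxin mice, while Ifng is highest in Th cells.

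Outside NK and T cells each of the 10 genes was seen in a minority of the cells of every Cluster. Free RNA in droplets can give UMIs in cells that do not express a gene. The 10363 macrophages, whose median cell held 16070 to 17049 UMIs, are given for comparison, and the source of their UMIs was not tested. A UMI was found in 3.45% of macrophages for Gzma, 2.93% for Gzmb, 2.30% for Gzmc, 4.86% for Gzmd, 2.23% for Gzme, 6.23% for Gzmf, 1.26% for Prf1, 1.35% for Nkg7, 0.193% for Ifng and 0.164% for Fasl. In T cells, which were shallower, the shares were 3.11% for Gzmd, 0.345% for Gzme and 1.04% for Gzmf. In NK cells, also shallower than macrophages, they were 13.3%, 14.1% and 8.73%. At an equal depth of 3000 UMIs per cell, Gzmf was seen in 0% to 0.963% of T cells and 0.647% to 3.44% of macrophages per mouse. It was lower in T cells of each mouse, and the source of these UMIs was not tested. Gzmd (0.729% to 1.89% against 0.460% to 2.38%) and Gzme (0% to 0.402% against 0.199% to 0.989%) overlapped between the cell types. Gzma (3.86% to 9.80% against 0.446% to 0.957%) and Gzmc (2.49% to 3.92% against 0.219% to 0.817%) were higher in T cells of each mouse. In malignant cells, whose median cell held 46799 to 57658 UMIs, the shares were 4.07% for Gzma, 3.59% for Gzmb, 3.25% for Gzmf and 0.253% for Ifng.

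The ratio of Gzmf to Gzma UMIs in macrophages differed from that in NK cells, in a direction that varied by mouse. In vehicle mouse 2, Gzmf was seen in 14.5% of macrophages and Gzmd in 10.7%, against 3.17% to 4.01% and 2.04% to 4.01% in the other mice. The NK cells of vehicle mouse 2 had Gzmf in 7.25% and Gzmd in 14.5%. In that mouse macrophages had 8.12 Gzmf UMIs for each Gzma UMI and NK cells 0.795. In macrophages of vehicle mouse 1, digoxin mouse 1 and digoxin mouse 2 the ratio was 0.702, 0.622 and 0.457. In their NK cells it was 0.0703, 0.171 and 0.862, so only in digoxin mouse 2 were macrophages lower. A single NK cell held 41.2% to 83.6% of the NK cell Gzmf UMIs of a mouse. The source of the macrophage UMIs was not tested. Among the smaller Clusters, 41 B cells had 195 UMIs of Gzma in 1 cell, and the 182 cells named Microglia had 203 Gzmb UMIs in 11 cells, with 120.0 and 111 mean CPM in vehicle mouse 2 and digoxin mouse 1 and 0 and 7.14 in the others. Of the 203 UMIs, 133 were in 1 cell, and these counts were not compared between groups.

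Other genes of the killing pathway, 60 in 8 lists of which 58 were measured, gave no call. In each of NK and T cells 54 were tested with limma and 0 were called higher or lower. In NK cells 13 of the 54 lay above and 17 below both vehicle values in each digoxin mouse, and in T cells 9 and 5, against 19.1% and 16.9% of all genes in NK cells and 14.3% and 19.0% in T cells. Among inhibitors, Serpinb9, the intracellular inhibitor that shields killers from their own granzyme B, had 805 and 668 mean CPM in NK cells with vehicle and 848 and 978 with digoxin (log2 difference 0.31, limma, adjusted p = 0.691). In T cells it had 165 and 117 against 255 and 229 (0.80, limma, adjusted p = 0.872), and Serpinb6b in NK cells 446 and 483 against 464 and 646. The 5 inhibitors tested in NK cells had differences from 0.21 to 0.38, against a median of 0.02 for all genes, and 3 of the 5 lay above without overlap, as did 19.1% of all genes. Other lists leaned the other way in NK cells. Below without overlap lay 5 of 9 regulators, 5 of 13 NK receptors and 3 of 7 ligands, as did 16.9% of all genes. Above lay 2, 2 and 1 of them.

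The granule genes Srgn, the proteoglycan that packs granzymes, and Ctsw were high in NK cells. Srgn had 1041 and 976 against 1008 and 968, and Ctsw 604 and 722 against 574 and 518 (-0.28, limma, adjusted p = 0.754). Among release genes, Lyst had 59.3 and 38.8 against 44.9 and 51.9 and Stxbp2 58.6 and 41.1 against 45.1 and 42.6, both overlapping. Of the 6 release genes tested in NK cells, 1 lay below both vehicle values and 0 above. Of the other granzymes, Gzmg had 106 and 1440 against 377 and 1081, with overlap, and Gzmk 18.3 and 17.2 against 23.1 and 27.2 (0.47, limma, adjusted p = 0.799).

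Of the ligands, Ccl5, a chemokine of killer cells, had 1330 and 945 mean CPM in NK cells with vehicle and 1681 and 1748 with digoxin (0.61, limma, adjusted p = 0.132), while Xcl1, which attracts cross-presenting dendritic cells, had 984 and 1070 against 1003 and 439 (-0.63, limma, adjusted p = 0.754). In T cells Ccl5 had 2237 and 1225 against 1499 and 1420. Ifngr1, the interferon gamma receptor, had 748 and 586 against 799 and 897 in NK cells (0.35, limma, adjusted p = 0.656), and M6pr, a lysosomal sorting receptor, 113 and 90.9 against 121 and 111. Of the NK receptors Il2rb had 999 and 909 against 1025 and 947, and Klrd1 1003 and 949 against 907 and 734 (-0.26, limma, adjusted p = 0.754). Of the regulators, Id2 had 905 and 918 against 770 and 684 (-0.33, limma, adjusted p = 0.518), without overlap, and Runx3 275 and 250 against 301 and 286 (0.16, limma, adjusted p = 0.846).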

How the data were processed

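Libraries were processed with Cell Ranger 3.0.2 and Seurat 3.0.2 against mm10, per the submitters' processing notes. The authors deposited natural log values of 1 plus UMIs per 10000, with tables of cells that give UMI counts and detected gene counts per cell, as the values show. Undoing the log with the deposited UMI count gave whole UMIs within 0.01 for 100% of values. CPM per cell was averaged over cells of a mouse, and log2(mean CPM + 1) was fitted with limma 3.58.1 (variance trend, Benjamini-Hochberg adjustment, threshold 0.05, low genes removed by edgeR's filterByExpr). Fits on summed UMIs with edgeR 4.0.16 and DESeq2 1.42.0 were among the alternatives. The mean of deposited log values was added as an alternative after seeing the data. The difference between NK and T cells was fitted on within-mouse differences. Shares at 3000 UMIs per cell are the chance of keeping at least 1 UMI, averaged over cells, and were compared by exact permutation. Doublets were marked with Scrublet (scanpy 1.11.5) and kept: 20 NK and 10 T cells. Nothing in the labels ties a vehicle mouse to a digoxin mouse. The limma p-values rest on the spread between these 2 mice per group, drawn toward a spread shared by genes of like level. With 1 mouse left out, the lone mouse of a group adds no spread. Positions and sequences came from GENCODE on GRCm38. The number of columns of no sample was 0. Members and lists were chosen with earlier results of these data known. All 10 members were named, with the 2 genes of each further list that had the highest NK cell mean and any that passed, and with the 3 genes most like each member. Scripts were tested on simulated data. A further allele of the genotype is not reported here.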

Additional observations from a re-analysis of the deposited data

How the results depend on the processing

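The limma count of genes called in NK cells, 7, became 17 with edgeR on summed UMIs, 23 with the replicate number as a block, 0 without marked doublets, 1 without cells with macrophage markers, 2 with the mean of deposited log values, and 12 to 142 with 1 mouse left out, highest without vehicle mouse 1. In T cells the count of 0 became 57 with the block, 1 with the mean of deposited log values and 0 to 198 with 1 mouse left out. For the difference between NK and T cells, 0 became 1 with CPM of summed UMIs, without cells with macrophage markers and after thinning, and 1 to 257 with 1 mouse left out. The cause of these shifts was not tested. Of 20 shares, 10 did not overlap, against 36.5% of all genes in NK cells and 33.5% in T cells. Leaving out 1 mouse can by construction only remove overlap, and gave 14 to 16. The like share over all genes was not taken, so these counts are not read further. Mice with the same replicate number did not deviate together over the genes tested (r = -0.03 in NK cells, 0.06 in T cells). With 2 mice per group their deviations mirror each other, so this check cannot settle whether the number pairs them. Under the block Gzma in T cells was called at 1.83 (limma, adjusted p = 3.05e-11), with no other change among the 10 genes.

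No member that passed turned sign, and the turns below are of log2 differences that did not pass with all 4 mice. On summed UMIs with limma, edgeR and DESeq2, Gzmb in NK cells was -0.091, -0.085 and -0.087, Gzmd 0.58, 1.05 and 1.05, Gzmf 0.91, 0.63 and 0.62, and Nkg7 -0.073, -0.079 and -0.082. With the mean of deposited log values, NK cells gave -0.12 for Gzmb, -0.030 for Gzme, 0.029 for Gzmf and -0.021 for Nkg7, T cells -0.12 for Gzmb, and the difference between them 0.24 for Gzma. Without marked doublets Gzmd was 0.014 and Gzmf 0.024. Gzme was -0.071 without cells over 20% mitochondrial UMIs and -0.99 without cells with macrophage markers. After thinning, Ifng was 0.18 in NK cells and Prf1 -0.065 in T cells. With 1 mouse left out, NK cell ranges were -0.086 to 0.11 for Gzmb, -0.91 to 0.65 for Gzmd, -0.32 to 0.95 for Gzme, -1.44 to 1.22 for Gzmf, -0.098 to 0.14 for Nkg7 and -0.94 to 0.34 for Ifng. T cell ranges were -0.22 to 0.32 for Gzmb, -0.069 to 0.85 for Prf1, -0.048 to 0.50 for Nkg7 (called without vehicle mouse 1, limma, adjusted p = 0.00484, as was its difference between NK and T cells, at -0.36, adjusted p = 0.047) and -0.38 to 0.97 for Fasl. Ifng and Fasl were the lowest of the 10 in NK cells. After thinning, Fasl there was 0.27 against 0.28 before, and Ifng 0.18 against -0.30.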
